A study of Mus musculus with 29 samples.

Results

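Gene expression was compared between days 1 and 2 of normal adipocyte differentiation in the 3T3-L1 line, mouse fibroblasts that turn into white adipocytes when given hormones. The 2 days fall in the clonal expansion phase, in which confluent preadipocytes re-enter the cell cycle before they accumulate lipid. All members were vehicle libraries, 3 from day 1 and 3 from day 2, which made 6 of the 29 libraries of the series. They were chosen by their labels alone, and every one of the 11959 genes in the deposited count table was compared. The cells had received DMSO from day -2, when they were confluent, to day 0. From day 0 to day 2 they were in differentiation medium, which held dexamethasone, insulin, isobutylmethylxanthine and a PPARγ agonist, so the medium was shared by both groups. In the rest of the series, cells were collected at days 0 and 7 as well, and parallel cultures received 10 µM KDM5-C70 (C70), an inhibitor of KDM5 histone demethylases, from day -2 to day 0 in place of DMSO. The C70 libraries of days 1 and 2 numbered 4 each and are compared with vehicle below in a single comparison. All 29 libraries shared the fit, so the scaling and the spread of each gene rest on the whole series. The line is clonal and grows without other tissue cells, which limits it as a model of fat tissue. The sources used here do not say whether replicates came from separate cultures, so P values measure the spread between libraries of the same group over all 29, which may be technical.

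In this culture model, the hormones of the medium first induce C/EBPβ and C/EBPδ, which then drive C/EBPα and PPARγ, the factors that switch on and maintain the genes of the fat cell. In parallel the cells leave their growth arrest, copy their DNA and divide, and then leave the cell cycle for good. Fat cells make and store triglyceride, so enzymes of fatty acid synthesis, cholesterol synthesis and mitochondrial metabolism are part of the program, while the fibrous matrix and stress fibres of the preadipocyte are taken down.

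Total counts per library ranged from 19073684 to 23768093 in the 6 libraries and from 16320275 to 24037170 in all 29. Replicate 1 stood apart from the other replicates of its day in 12 noncoding genes that resemble or hold ribosomal RNA, including Gm42418 and mt-Rnr2. They took 0.977%, 1.83% and 2.17% of counts at day 1 and 3.47%, 1.79% and 1.92% at day 2. Among 7232 genes with a mean above 20 CPM (counts relative to a library size adjusted by edgeR's TMM method), between 1 and 18 genes per library lay more than 0.5 log2 from the mean of its other replicates. The labelled cell type was checked against defining markers. All 6 adipocyte markers rose from day 1 to day 2 and 6 of 7 fibroblast markers fell, while the 5 muscle and 4 endothelial markers were not among the genes analysed here. Of other lineages, 2 of 4 chondrocyte markers were in the table and fell (Sox9 -1.42, Comp -0.65), as did 1 of 5 osteoblast markers (Runx2 -0.52). Comp was low and its groups overlapped, at 3.19, 1.88 and 1.79 CPM at day 1 and 1.035, 1.84 and 1.48 CPM at day 2. The 1 of 5 brown fat markers in the table rose (Ppargc1a 0.36), and the 1 of 5 macrophage markers did not pass (Cd68 -0.23). Fewer cells of a type and less RNA per cell cannot be told apart in bulk RNA.

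Between days 1 and 2, 5292 of 11959 genes (44.3%) were differentially expressed genes (DEGs), which passed both an adjusted P of 0.05 and a log2 fold change of 0.32 in either direction in edgeR's quasi-likelihood test. Of these, 2662 genes (22.3% of all tested) were higher at day 2 and 2630 genes (22%) were lower, and the median log2 fold change over all genes was 0.01. A fold change over 2 was passed by 616 higher genes (5.15%) and 617 lower genes (5.16%). For 8323 genes (69.6%), the 3 values of day 2 lay wholly above or wholly below the 3 values of day 1. Non-overlap was therefore the rule for most genes here, and the sections that follow read each gene group against these shares.

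**Figure D1:**
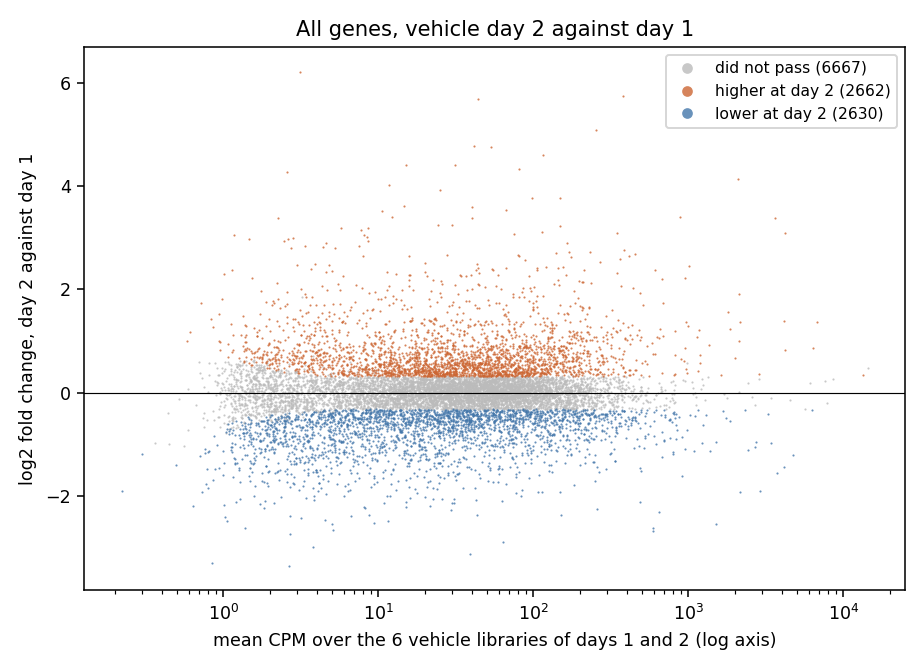
Each point is a gene, with its mean CPM over the 6 vehicle libraries on a log axis and its log2 fold change from day 1 to day 2 on the other axis. The 2662 genes counted as higher and the 2630 counted as lower spread on both sides of 0, and the rises reach further (6.20) than the falls (-3.34).

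The genes with the largest rises, among DEGs of above-median expression whose libraries did not overlap, included several with known roles in fat cells. Expression was the mean over the 6 libraries, so genes low at day 1, such as Mrap, passed this filter through day 2. Gpd1 (chr15:99717515-99725005 in GRCm38, + strand), which makes the glycerol 3-phosphate that carries fatty acids in triglyceride, was at 13.3, 16.4 and 12.3 CPM at day 1 and 741, 766 and 735 CPM at day 2 (log2 fold change 5.74 ± 0.12 SE, adjusted P = 5.56e-26). Adipoq (chr16:23146536-23158028, + strand) encodes adiponectin, a hormone secreted by adipocytes, and was at 14.2, 16.9 and 12.8 CPM at day 1 and 477, 510.2 and 491 CPM at day 2 (log2 fold change 5.07 ± 0.11 SE, adjusted P = 5.58e-26). Cidec, which fuses lipid droplets, was at 217, 256 and 199.6 CPM at day 1 and 3919, 3930 and 3950 CPM at day 2 (log2 fold change 4.13 ± 0.10 SE, adjusted P = 6.43e-25). In each of these genes the lowest library of day 2 was above the highest of day 1, as the rule required. Resistin (Retn), another adipocyte hormone, rose from 7.67, 8.36 and 7.11 CPM to 144, 161 and 159 CPM (log2 fold change 4.32 ± 0.13 SE, adjusted P = 2.5e-22). Thrsp, which encodes the lipogenic nuclear protein Spot 14, was at 4.20, 4.37 and 2.78 CPM at day 1 and 97.1, 109.9 and 102 CPM at day 2 (log2 fold change 4.76 ± 0.15 SE, adjusted P = 3.53e-22). Mrap, an accessory protein of the corticotropin receptor, went from 1.64, 2.07 and 1.32 CPM to 83.5, 88.9 and 87.4 CPM (log2 fold change 5.69 ± 0.16 SE, adjusted P = 8.67e-23). Among the remaining members of the 12 largest rises were Lgals12 (4.78), the adhesion molecule gene Mcam (4.41), the phospholipase gene Pla2g16 (3.76), the aldehyde dehydrogenase gene Aldh1a7 (3.76) and the small GTPase gene Arl4a (3.60), all as log2 fold changes. At day 1 these genes were already measurable in every library, so their folds do not rest on zero counts.

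**Figure D2:**
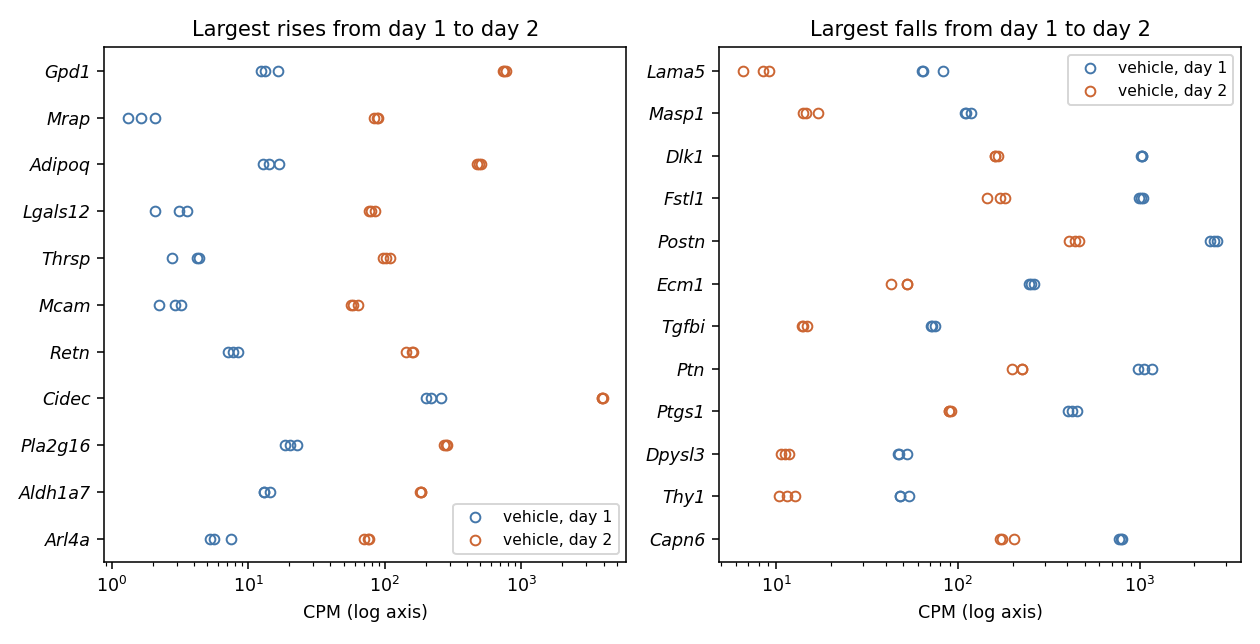
CPM on a log axis of 11 of the 12 genes with the largest rises and of the 12 with the largest falls, each circle 1 vehicle library. In all 23 genes drawn the 3 circles of day 2 are separate from those of day 1, as the rule required. For Gpd1 they lie at 741 to 766 CPM against 12.3 to 16.4 CPM.

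Of 15 terminal adipogenic factors and partners, 8 rose, 0 fell and 7 did not pass, with a median log2 fold change of 0.83. Pparg, the receptor required for fat cell formation, was at 78.1, 83.4 and 78.6 CPM at day 1 and 165, 166 and 170.0 CPM at day 2 (log2 fold change 1.06 ± 0.058 SE, adjusted P = 3.77e-16). Cebpa, its partner in maintaining the adipocyte state, was at 98.2, 118 and 113 CPM at day 1 and 336, 331 and 375 CPM at day 2 (log2 fold change 1.66 ± 0.085 SE, adjusted P = 8.11e-17). Klf15, a Krüppel-like activator, showed the largest rise of the list (log2 fold change 2.82 ± 0.17 SE, adjusted P = 4.55e-15), from 0.776, 1.13 and 1.37 CPM to 7.42, 7.70 and 7.98 CPM. Nr1h3, the oxysterol receptor LXRα, rose by 1.69 on the log2 scale. The earlier factors were mixed: of 16 early and inducing factors, 7 fell, 4 rose and 5 did not pass, with a median of -0.24. Cebpd, which is induced by glucocorticoid, fell from 104, 116 and 123 CPM to 64.2, 59.5 and 72.5 CPM (log2 fold change -0.81 ± 0.12 SE, adjusted P = 5.5e-07). Klf5 (-1.23) and the vitamin D receptor gene Vdr (-1.49) fell as well. Cebpb was at 118, 165 and 169.9 CPM at day 1 and 93.6, 103 and 130.0 CPM at day 2 (log2 fold change -0.47 ± 0.16 SE, adjusted P = 0.0138), its libraries overlapped, and replicate 1 was the lowest of both days. Leaving out any of 3 single libraries ended this call (log2 fold changes from -0.62 to -0.38 over all 6 left out in turn), namely day 1 replicate 2, day 1 replicate 3 or day 2 replicate 1.

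Among 33 adipocyte markers, 23 rose, 1 fell and 9 did not pass. Members ranged from -0.66 to 5.07 on the log2 scale, around a median of 1.44. In lipid uptake and binding, 7 of 9 rose. Fabp4, the fatty acid binding protein of adipocytes, was at 923, 929.6 and 784 CPM at day 1 and 7503, 7170 and 7798 CPM at day 2 (log2 fold change 3.09 ± 0.088 SE, adjusted P = 6.3e-23). Its relative Fabp5 (2.69) and the fatty acid translocase gene Cd36 (2.46) rose too. In lipid droplet coating and lipolysis, 10 of 14 rose, led after Cidec by the lipase inhibitor gene G0s2 (3.22) and the monoglyceride lipase gene Mgll (3.14). The exception was Plin3, a coat protein of nascent droplets found in most tissues, which fell from 141, 136 and 133 CPM to 91.4, 85 and 82.7 CPM (log2 fold change -0.66 ± 0.044 SE, adjusted P = 3.52e-14). In the hormone and glucose transport group, 6 of 10 rose. Slc2a4, the insulin-responsive glucose transporter GLUT4, was at 1.42, 1.83 and 0.801 CPM at day 1 and 19.1, 21.9 and 25.1 CPM at day 2 (log2 fold change 4.02 ± 0.17 SE, adjusted P = 4.75e-19).

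Fatty acid and triglyceride synthesis rose almost as whole pathways. Of 22 genes of fatty acid synthesis, 20 rose, 1 fell and 1 did not pass (median 1.01). Fasn, which encodes fatty acid synthase, was at 908, 949.9 and 844 CPM at day 1 and 2700, 2726 and 2594 CPM at day 2 (log2 fold change 1.57 ± 0.093 SE, adjusted P = 2.7e-15). Acaca, the acetyl-CoA carboxylase that feeds it, was at 70.8, 71.2 and 66.5 CPM at day 1 and 132, 143 and 124 CPM at day 2 (log2 fold change 0.94 ± 0.092 SE, adjusted P = 2.86e-10). Acsl1, which activates fatty acids for storage, rose by 3.37 and the mitochondrial citrate carrier gene Slc25a1 by 2.11 on the log2 scale. Elovl6, which lengthens long-chain fatty acids, was the only member to fall, from 62.3, 59.6 and 69.2 CPM to 31.9, 31.1 and 34.9 CPM (log2 fold change -0.97 ± 0.082 SE, adjusted P = 1.22e-11). In triglyceride assembly, 10 of 12 genes rose and 0 fell (median 0.96). Besides Gpd1 these included Dgat2 (2.77) and Agpat2 (2.65), acyltransferases of the later steps. Gpam, which adds the first acyl group, was at 102, 112 and 104 CPM at day 1 and 185, 191 and 184 CPM at day 2 (log2 fold change 0.82 ± 0.076 SE, adjusted P = 8.25e-11). Lpin1, the phosphatidate phosphatase, was at 259, 275 and 259 CPM at day 1 and 559.7, 586 and 569 CPM at day 2 (log2 fold change 1.11 ± 0.068 SE, adjusted P = 5.09e-15).

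Preadipocyte and inhibitory factors fell more often than they rose. Dlk1 (chr12:109452823-109463336, + strand), the preadipocyte factor that holds back differentiation, was at 1018, 1034 and 1033 CPM at day 1 and 159, 159 and 167 CPM at day 2 (log2 fold change -2.67 ± 0.10 SE, adjusted P = 1.41e-19). The largest fall of the rule for single genes was that of Lama5, a laminin chain of basement membranes, from 82.5, 64.2 and 63.6 CPM to 8.50, 9.13 and 6.55 CPM (log2 fold change -3.11 ± 0.14 SE, adjusted P = 3.07e-18). Masp1, a protease of the complement lectin pathway, was at 118, 111 and 110.0 CPM at day 1 and 17, 14 and 14.5 CPM at day 2 (log2 fold change -2.90 ± 0.087 SE, adjusted P = 2.34e-22). The secreted proteins Fstl1 (-2.62), Postn (-2.55), Ecm1 (-2.37), Tgfbi (-2.36) and pleiotrophin (Ptn, -2.31) fell by similar amounts on the log2 scale. The remaining members of the 12 largest falls were the cyclooxygenase gene Ptgs1 (-2.24), Dpysl3 (-2.12), the surface antigen gene Thy1 (-2.12) and Capn6 (-2.11). As with the rises, genes low on one day, here Lama5 and Dpysl3 at day 2, passed the expression filter through the other. Not all of the 12 were highest in preadipocytes. From day 0 to day 1, Ecm1 (1.52), Masp1 (0.80), Ptgs1 (0.44) and Capn6 (0.38) had risen on the log2 scale. Lama5, Dlk1, Fstl1, Tgfbi, Ptn, Dpysl3 and Thy1 had fallen in that step, and Postn did not pass. Of 25 preadipocyte and inhibitory factors, 15 fell, 2 rose and 8 did not pass (median -0.47). Zfp521 (-1.55), a zinc finger repressor of Ebf1, and Foxc2 (-1.51) fell furthest after Dlk1. Foxo1, a target of insulin signalling, rose from 60.5, 58.2 and 59.4 CPM to 75.6, 83.6 and 80 CPM (log2 fold change 0.43 ± 0.062 SE, adjusted P = 5.55e-07).

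Of 63 extracellular matrix genes, 48 fell, 4 rose and 11 did not pass, with a median of -0.72 and members from -2.55 to 1.70. The collagens gave 11 falls and 2 rises among 18 genes. Col1a1, the main chain of type I collagen, was at 3131, 3510 and 3545 CPM at day 1 and 913, 915 and 852 CPM at day 2 (log2 fold change -1.93 ± 0.10 SE, adjusted P = 3.86e-17). Its partner chain Col1a2 (-1.55) and Col16a1 (-1.99) fell as well, while Col5a3, a minor fibrillar chain, rose from 148, 144 and 129.7 CPM to 244, 251 and 238 CPM (log2 fold change 0.80 ± 0.055 SE, adjusted P = 1.08e-13). Of 15 genes that process or crosslink collagen, 12 fell and 0 rose, with the lysyl oxidases Loxl4 (-1.49), Lox (-1.31) and Loxl3 (-1.23) lowest. In the remaining matrix proteins and proteases, 25 of 30 fell, among them tenascin C (Tnc, -2.10) and fibrillin 1 (Fbn1, -1.92). The collagenase gene Mmp13 went against them, from 22.9, 22.4 and 28 CPM to 83.2, 77.6 and 76.8 CPM (log2 fold change 1.70 ± 0.14 SE, adjusted P = 2.94e-12).

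Stress fibre and smooth muscle genes numbered 24, of which 15 fell, 3 rose and 6 did not pass (median -0.65). Acta2, smooth muscle actin, was at 5.43, 3.80 and 3.77 CPM at day 1 and 1.35, 1.35 and 1.53 CPM at day 2 (log2 fold change -1.62 ± 0.38 SE, adjusted P = 0.000537), and the actin-binding Cald1 fell by 1.23 on the log2 scale. Lmod1 also passed, but on few reads: its counts were 9, 9 and 9 at day 1 and 3, 6 and 3 at day 2. Its call was lost without day 2 replicate 1 (log2 fold change -1.01) or without day 2 replicate 3 (-1.1). It was also lost with both replicate 1 libraries left out (-1.04) and after quantile normalization (-0.596). Desmin (Des), an intermediate filament, rose from 1.82, 2.58 and 2.03 CPM to 3.64, 3.56 and 3.48 CPM (log2 fold change 0.73 ± 0.17 SE, adjusted P = 0.000578). Of 25 ligands, receptors and mediators of the TGF-β and BMP pathways, 15 fell and 1 rose (median -0.43). The antagonists follistatin (Fst) and gremlin 1 (Grem1) fell by 1.88 and 1.78 on the log2 scale. Id3, a target of BMP signals, was at 16.2, 16.1 and 15.2 CPM at day 1 and 5.80, 4.46 and 6.39 CPM at day 2 (log2 fold change -1.52 ± 0.13 SE, adjusted P = 1.46e-11), and Smad2, a receptor-activated mediator, was the member that rose (0.43).

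**Figure D3:**
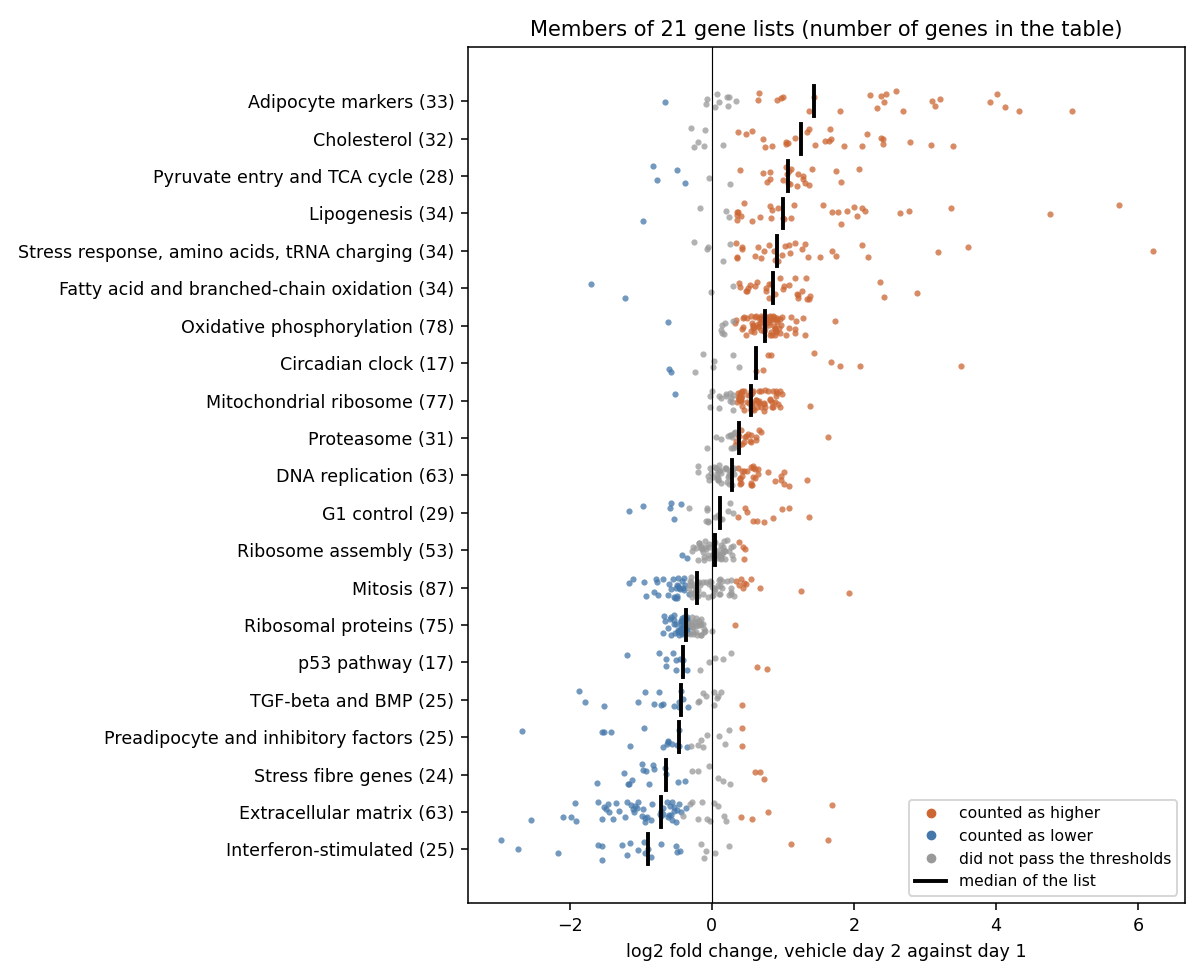
Log2 fold change from day 1 to day 2 in vehicle for each member of 21 gene lists (points), with the median of the list as a black bar and the number of genes in the table in brackets. Medians run from 1.44 for adipocyte markers to -0.89 for interferon-stimulated genes, and the mitosis list spans both signs while the oxidative phosphorylation list lies to the right of 0 apart from 1 gene.

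The cell cycle genes are described by phase. G1 genes were mixed: of 29, 10 rose, 6 fell and 13 did not pass (median 0.12). Ccnd1, the D-type cyclin of growth factor entry, was at 33.4, 33.3 and 32.6 CPM at day 1 and 14.6, 14.8 and 14.9 CPM at day 2 (log2 fold change -1.17 ± 0.10 SE, adjusted P = 1.32e-11). Ccnd2, another D-type cyclin, went the other way, from 740.1, 752 and 710.1 CPM to 1562, 1566 and 1522 CPM (log2 fold change 1.08 ± 0.068 SE, adjusted P = 1.27e-14). Ccnd3 showed no call, at 144, 156 and 152 CPM at day 1 and 142, 141 and 153 CPM at day 2 (log2 fold change -0.05 ± 0.077 SE, adjusted P = 0.597). Their kinase partners parted likewise, as Cdk4 fell by 0.58 on the log2 scale and Cdk6 rose by 1.36. The E-type cyclins that open S phase both rose. Ccne1 was at 21, 22.2 and 22.7 CPM at day 1 and 35.8, 35.7 and 38.2 CPM at day 2 (log2 fold change 0.74 ± 0.072 SE, adjusted P = 2.67e-10), and Ccne2 at 13.9, 14.8 and 13.1 CPM at day 1 and 26.1, 24.1 and 26 CPM at day 2 (log2 fold change 0.86 ± 0.093 SE, adjusted P = 2.02e-09). Among inhibitors of the cyclin-dependent kinases, Cdkn2c rose (0.98) and Cdkn2b (-0.97) and Cdkn2a (-0.58) fell. The retinoblastoma gene Rb1 rose by 0.64 and the atypical repressor gene E2f8 fell by 0.43 on the log2 scale, the latter call lost with limma-trend and quantile normalization.

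DNA replication genes rose without exception in direction among those that passed: of 63, 28 rose, 0 fell and 35 did not pass (median 0.29). The share was highest in origin licensing, where 12 of 18 rose. Cdc6, which loads the MCM helicase, was at 4.11, 6.95 and 5.23 CPM at day 1 and 11.7, 9.41 and 11 CPM at day 2 (log2 fold change 0.98 ± 0.17 SE, adjusted P = 1.19e-05). Gmnn, the inhibitor of relicensing, rose by 1.01 and Cdt1, its target, by 0.65 on the log2 scale. In origin firing, 6 of 12 rose, with Gins1 at 2.28, 2.54 and 2.03 CPM at day 1 and 6.75, 4.79 and 5.78 CPM at day 2 (log2 fold change 1.33 ± 0.16 SE, adjusted P = 1.1e-08) and Cdc45, its helicase partner, up by 1.09. Polymerases and their clamps gave 7 of 24, led by the histone chaperone gene Asf1b (1.02). In nucleotide supply, 3 of 9 rose, among them thymidine kinase Tk1 (0.97) and ribonucleotide reductase Rrm2 (0.89).

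Of 87 mitosis genes, 29 fell (33.3%, against 22% of all genes), 10 rose and 48 did not pass (median -0.21). By limma-trend with a prior count of 0.5 the number lower was 19 (21.8%), against 21.5% of all genes by the same fit. Spindle motors and microtubule factors gave 11 falls and 0 rises among 24 genes. Kif23, a motor of the midzone, was at 20.1, 21.1 and 21.2 CPM at day 1 and 8.46, 9.62 and 9.77 CPM at day 2 (log2 fold change -1.16 ± 0.085 SE, adjusted P = 4.15e-13), and Kif20a (-0.81) fell too. Of 15 genes of anaphase and cytokinesis, 7 fell and 2 rose. Cdc20, which activates the anaphase-promoting complex, was at 42.1, 50.9 and 46.6 CPM at day 1 and 31.9, 29.8 and 32.4 CPM at day 2 (log2 fold change -0.57 ± 0.076 SE, adjusted P = 1.23e-07). Top2a, which untangles sister chromatids, was at 217, 252 and 261 CPM at day 1 and 128, 127 and 129.8 CPM at day 2 (log2 fold change -0.92 ± 0.084 SE, adjusted P = 6.3e-11), and Mki67, the proliferation antigen of the chromosome surface, fell by 0.53 on the log2 scale. The kinetochore group was even, with 5 falls, such as Bub1b (-0.78) and Cenpe (-0.78), and 5 rises, such as Cenpk (0.68), among 23. Pkmyt1, the kinase that holds Cdk1 inactive, rose most, from 10.4, 10.4 and 10.3 CPM to 37.3, 41.6 and 39.4 CPM (log2 fold change 1.93 ± 0.10 SE, adjusted P = 2.61e-16), while the activating phosphatase gene Cdc25b fell by 1.12 on the log2 scale.

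Of the A- and B-type cyclins, 1 of 3 passed. Ccna2, cyclin A2, was at 43.9, 52.4 and 54 CPM at day 1 and 50, 51.7 and 53.1 CPM at day 2 (log2 fold change 0.04 ± 0.10 SE, adjusted P = 0.73), and its sign turned without day 1 replicate 1 (-0.04). Ccnb1 was at 31.6, 34.2 and 34.3 CPM at day 1 and 26.4, 27.5 and 31 CPM at day 2 and did not pass on fold change (log2 fold change -0.24 ± 0.093 SE, adjusted P = 0.0255). Ccnb2 fell from 19.2, 22.4 and 20.6 CPM to 14.7, 16 and 14.9 CPM (log2 fold change -0.45 ± 0.090 SE, adjusted P = 7.6e-05), a call lost by limma-trend with a prior count of 0.5. The p53 pathway gave 10 falls and 2 rises among 17 genes (median -0.41), with the receptor gene Eda2r (-1.20) lowest and Bbc3, the death inducer PUMA, highest (0.77).

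Promoters of the cell cycle genes are shown because S phase and mitosis genes carry known letters there. The cell cycle genes homology region (CHR, TTTGAA on either strand), a site of mitotic genes, lay within 250 bases upstream of the RefSeq start in 26 of 73 mitosis genes with a window (35.6%), against 10.3% of all 9007 windows (GRCm38.p6). E2F letters (TTTGGCGC, TTTCCCGC or TTTCGCGC on either strand, which can overlap each other) lay in 10 of 52 replication genes (19.2%), against 3.31% of all windows. Stretches of 60 bases follow, 5′ to 3′ on the strand of the gene, with the matches in capitals. The first 3 genes fell and the next 2 rose with the same CHR letters, though Cdca5, the first of these 2, lost its call in 4 of 15 alternatives, namely both limma-trend fits and those without day 1 replicate 1 or without both replicate 1 libraries.
Cdc20, chr4:118437344-118437403, - strand: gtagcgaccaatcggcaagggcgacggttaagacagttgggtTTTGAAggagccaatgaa
Top2a, chr11:99024190-99024249, - strand: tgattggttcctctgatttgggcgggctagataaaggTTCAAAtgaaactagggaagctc
Ccnb2, chr9:70421689-70421748, - strand: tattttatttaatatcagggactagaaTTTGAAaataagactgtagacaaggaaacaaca
Cdca5, chr19:6085037-6085096, + strand: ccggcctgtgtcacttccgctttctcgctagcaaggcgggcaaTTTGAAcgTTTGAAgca
Ncapg2, chr12:116405376-116405435, + strand: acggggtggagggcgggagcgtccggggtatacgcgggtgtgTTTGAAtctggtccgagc
E2F letters are shown in 2 genes that rose, Cdc6 and Cdk2, and in 1 that fell, Cdkn2a.
Cdc6, chr11:98907987-98908046, + strand: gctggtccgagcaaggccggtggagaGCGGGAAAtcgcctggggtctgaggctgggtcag
Cdk2, chr10:128705158-128705217, - strand: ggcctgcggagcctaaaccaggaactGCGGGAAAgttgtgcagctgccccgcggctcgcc
Cdkn2a, chr4:89294685-89294744, - strand: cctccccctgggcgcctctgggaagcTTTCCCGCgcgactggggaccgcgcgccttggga
Of 26 mitosis genes with CHR letters, 9 fell and 2 rose (median -0.20), and of 47 without them, 15 fell and 6 rose (median -0.24). In the replication list 5 of 10 genes with E2F letters rose and 17 of 42 without. A match is a description of these letters in this window and not a shown binding site.

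Cholesterol synthesis rose as a pathway. Of 20 synthesis enzymes, 19 rose, 0 fell and 1 did not pass, with a median log2 fold change of 1.62. Cyp51, the lanosterol demethylase, was at 148, 169.7 and 138 CPM at day 1 and 1617, 1581 and 1620 CPM at day 2 (log2 fold change 3.40 ± 0.071 SE, adjusted P = 5.58e-26). Fdps, which makes farnesyl diphosphate, was at 1.46, 1.13 and 1.37 CPM at day 1 and 9.04, 9.25 and 9.26 CPM at day 2 (log2 fold change 2.79 ± 0.14 SE, adjusted P = 3.73e-17), and the sterol oxidase gene Msmo1 at 48.9, 45.9 and 42.7 CPM at day 1 and 244, 236 and 252 CPM at day 2 (log2 fold change 2.41 ± 0.074 SE, adjusted P = 3.63e-22). In these 3 genes, taken as the largest changes of the role, no library of day 1 reached the lowest of day 2. Groups did not overlap in 19 of the 20 enzymes, against 69.6% of all genes. Of 12 genes of sterol sensing and transport, 7 rose and 0 fell (median 0.43), though 2 were lower after quantile normalization. Insig1, the retention protein of the SREBP pathway and itself one of its targets, was at 71.4, 76.3 and 70.3 CPM at day 1 and 599.5, 628 and 623 CPM at day 2 (log2 fold change 3.08 ± 0.065 SE, adjusted P = 5.58e-26). The efflux pump gene Abca1 rose by 1.18 on the log2 scale. The CCAAT box, bound by NF-Y, lay in the window of 13 of 15 synthesis enzymes (86.7%), against 37.5% of all windows. Shares in other lists included 94.1% of endoplasmic reticulum chaperone and 78.6% of clock gene windows. Of the 13 synthesis enzymes with the letters, 12 rose, as did 2 of the 2 without them, and of the 16 chaperone genes with them 6 rose and 2 fell. Letters of the sterol element (TCACCCCAC) lay in the window of 1 of the 15 synthesis enzymes (6.67%), against 0.455% of all windows. The CCAAT box is shown in capitals on either strand in 4 genes that rose.
Cyp51, chr5:4104698-4104757, - strand: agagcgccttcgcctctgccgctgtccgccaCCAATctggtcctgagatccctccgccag
Msmo1, chr8:64733602-64733661, - strand: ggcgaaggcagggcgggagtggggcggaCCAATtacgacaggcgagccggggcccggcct
Insig1, chr5:28071168-28071227, + strand: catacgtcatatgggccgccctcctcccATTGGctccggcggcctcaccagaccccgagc
Mvd, chr8:122443423-122443482, - strand: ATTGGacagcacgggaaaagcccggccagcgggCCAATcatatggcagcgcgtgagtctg
Mvd, which encodes mevalonate diphosphate decarboxylase, was at 15.6, 12.8 and 12.9 CPM at day 1 and 76.5, 67.7 and 70.9 CPM at day 2 (log2 fold change 2.38 ± 0.11 SE, adjusted P = 2.06e-17).

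Genes of the integrated stress response, amino acid supply and tRNA charging rose together. Of 34, 29 rose, 0 fell and 5 did not pass, with a median of 0.91. Slc7a11 (chr3:49892526-50443614, - strand), the cystine importer, had the largest fitted change of all genes (log2 fold change 6.20 ± 0.44 SE, adjusted P = 1.62e-13), but on few reads at day 1: its counts were 3, 2 and 0 at day 1 and 136, 134 and 137 at day 2. The ratio of its summed counts per total was 75.7, with an exact 95% interval of 32.2 to 234 that covers counting error only. Trib3, a pseudokinase induced by ATF4, was at 2.60, 1.83 and 2.21 CPM at day 1 and 27.5, 26.4 and 27.4 CPM at day 2 (log2 fold change 3.61 ± 0.17 SE, adjusted P = 2.12e-17). Chac1, which degrades glutathione, was at 1.42, 1.55 and 2.12 CPM at day 1 and 16.2, 16.6 and 13.4 CPM at day 2 (log2 fold change 3.19 ± 0.19 SE, adjusted P = 4.49e-15). Endoplasmic reticulum chaperones moved less, with 8 of 21 higher and 2 lower (median 0.12), led by Ero1l (1.54) and the factor gene Xbp1 (1.04), while the disulfide isomerase gene P4hb fell by 0.44 on the log2 scale. The proteasome gave 19 rises and 0 falls among 31 subunits (median 0.38). Psma1, a subunit of the core particle, was at 107, 117 and 109 CPM at day 1 and 342, 341 and 353 CPM at day 2 (log2 fold change 1.64 ± 0.068 SE, adjusted P = 4.67e-19), well ahead of Psma6 (0.69) and Psmb3 (0.67).

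Cytosolic ribosomal protein genes fell by small amounts. Of 75, 47 fell, 1 rose and 27 did not pass, with a median of -0.36 and members from -0.69 to 0.33. Rps20, a protein of the small subunit, was at 497, 496 and 513 CPM at day 1 and 317, 299 and 315 CPM at day 2 (log2 fold change -0.69 ± 0.085 SE, adjusted P = 2.95e-08). Rps27 (-0.68) and Rpl37a (-0.66) were next. Rpl9 was the one member to rise (log2 fold change 0.33 ± 0.074 SE, adjusted P = 0.000294), and its call was lost in 8 of 15 alternatives (log2 fold changes from 0.30 to 0.36), including DESeq2, quantile normalization, the 6 libraries fitted alone, and the fits without day 1 replicate 1 or day 2 replicate 3. These genes have many near-identical pseudogene copies that can share reads, so their values are uncertain. Genes of ribosome assembly and RNA polymerase I mostly did not pass, with 4 rises and 2 falls among 53 (median 0.04), and 1 fall without day 1 replicate 2.

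Most nuclear genes of the mitochondrial lists rose. Of 78 nuclear genes of oxidative phosphorylation, 71 rose, 1 fell and 6 did not pass, with a median of 0.75. Counts of rises were 34 of 37 in complex I, 4 of 4 in complex II, 10 of 10 in complex III with cytochrome c, 10 of 11 in complex IV and 13 of 16 in ATP synthase. Cycs, cytochrome c itself, was at 81.5, 93 and 84.8 CPM at day 1 and 297, 276 and 287 CPM at day 2 (log2 fold change 1.73 ± 0.072 SE, adjusted P = 5.62e-19). Ndufa9, a complex I subunit, was at 82.8, 86.6 and 83.9 CPM at day 1 and 178, 178 and 179.6 CPM at day 2 (log2 fold change 1.08 ± 0.067 SE, adjusted P = 7.71e-15), and the ATP synthase c-ring gene Atp5g3 rose by 1.11. Atpif1, the inhibitor of ATP synthase, was the exception and fell from 36.7, 40.9 and 41.4 CPM to 25.1, 26.1 and 26.4 CPM (log2 fold change -0.62 ± 0.089 SE, adjusted P = 5.84e-07). Of 7 transcripts encoded by mitochondrial DNA, 5 rose and 0 fell (median 0.36), mt-Nd6 most (0.98). Replicate 1 of day 2, the library highest in mt-Rnr2, was the lowest of its day in 7 of the 7, and the median was 0.41 without it.

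The mitochondrial ribosome gave 62 rises and 1 fall among 77 genes (median 0.55), with Mrpl12 at 62.5, 69 and 64 CPM at day 1 and 173, 162 and 173 CPM at day 2 (log2 fold change 1.38 ± 0.089 SE, adjusted P = 2.02e-14) and Mrps6 (-0.52) as the one that fell. Of 20 carriers, outer membrane channels and regulators of biogenesis, 13 rose and 0 fell (median 0.42). The adenine nucleotide carriers differed, since Slc25a5 was at 302, 333 and 331 CPM at day 1 and 675, 632 and 666 CPM at day 2 (log2 fold change 1.03 ± 0.056 SE, adjusted P = 4.42e-16) and Slc25a4 at 369, 391 and 389 CPM at day 1 and 406, 379 and 409 CPM at day 2 (log2 fold change 0.06 ± 0.059 SE, adjusted P = 0.425). Ppif, the cyclophilin of the permeability transition pore, rose by 0.62 and the coactivator gene Ppargc1b by 1.12 on the log2 scale. Of 28 genes of pyruvate entry and the TCA cycle, 22 rose and 4 fell (median 1.07). Mdh1, cytosolic malate dehydrogenase, was at 142, 148 and 134 CPM at day 1 and 593, 586 and 601 CPM at day 2 (log2 fold change 2.07 ± 0.068 SE, adjusted P = 1.82e-21), and the pyruvate carrier subunit Mpc1 rose by 1.75. Pdk4, which turns pyruvate dehydrogenase off, fell from 173, 152 and 162 CPM to 86.2, 96 and 93.1 CPM (log2 fold change -0.82 ± 0.073 SE, adjusted P = 2.99e-11).

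Oxidation of fatty acids and branched-chain amino acids gave 30 rises and 2 falls among 34 genes (median 0.86). The 2 transaminases of branched-chain amino acids moved in opposite directions. Bcat2, the mitochondrial form, was at 39.2, 43.2 and 35.1 CPM at day 1 and 291, 292 and 287 CPM at day 2 (log2 fold change 2.89 ± 0.090 SE, adjusted P = 4.61e-22), and Bcat1, the cytosolic form, at 7.21, 7.47 and 7.16 CPM at day 1 and 2.43, 2.17 and 2.10 CPM at day 2 (log2 fold change -1.70 ± 0.13 SE, adjusted P = 8.49e-13). Subunits of the next enzyme, Dbt (2.42) and Bckdhb (2.37), rose. Glycolysis was mixed, with 8 rises and 4 falls among 19 (median 0.28, and 0.10 after quantile normalization). The hexokinases parted, as Hk2 rose by 1.30 and Hk1 fell by 0.99 on the log2 scale. Pfkfb3, which makes the activator of phosphofructokinase, was at 50.8, 50.6 and 44 CPM at day 1 and 308, 292 and 302 CPM at day 2 (log2 fold change 2.63 ± 0.073 SE, adjusted P = 3.42e-23). In the pentose phosphate and NADPH group, 7 of 9 rose and 1 fell (median 0.83). Malic enzyme Me1 (2.05), transketolase Tkt (1.70) and transaldolase Taldo1 (1.13) rose, and the cytosolic isocitrate dehydrogenase gene Idh1 fell by 0.49 on the log2 scale.

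Genes of the inducing signals were lower or mixed at day 2. Of 18 immediate early factors, 9 fell, 1 rose and 8 did not pass (median -0.49, and -0.28 without the tenth of genes of lowest level). Klf10 was at 108, 100.4 and 106 CPM at day 1 and 45, 42.4 and 41.7 CPM at day 2 (log2 fold change -1.28 ± 0.084 SE, adjusted P = 3.2e-14) and Ier3, an early survival gene, fell by 1.15, while Maff, a small Maf factor, rose by 1.11 on the log2 scale. Genes of cAMP response and feedback split 5 higher to 6 lower among 17 (median 0.05, from -0.0045 to 0.0886 over the alternatives). Dusp4, a phosphatase of MAP kinases, was at 12.6, 13.9 and 12.9 CPM at day 1 and 76.6, 70.8 and 73.5 CPM at day 2 (log2 fold change 2.48 ± 0.094 SE, adjusted P = 5.37e-20), and Pck1, the enzyme of glyceroneogenesis, rose by 1.41. Of 20 genes of the glucocorticoid receptor and its targets, 8 rose and 6 fell (median 0.07). Hsd11b1, which regenerates active glucocorticoid, was at 7.35, 7.09 and 5.51 CPM at day 1 and 33.8, 35 and 31.3 CPM at day 2 (log2 fold change 2.33 ± 0.12 SE, adjusted P = 7.51e-17), and Ddit4, an inhibitor of mTORC1, fell by 0.92 on the log2 scale. Timp4 passed on few reads, with counts of 6, 13 and 5 at day 1 and 21, 21 and 14 at day 2, and lost its call without day 1 replicate 1, day 1 replicate 3 or day 2 replicate 1.

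Interferon-stimulated and antigen presentation genes fell, with 18 of 25 lower, 2 higher and 5 that did not pass (median -0.89). Oasl2, an antiviral oligoadenylate synthetase relative, was at 9.17, 7.00 and 4.19 CPM at day 1 and 1.12, 0.941 and 0.460 CPM at day 2 (log2 fold change -2.98 ± 0.39 SE, adjusted P = 8.9e-08). Ifit1 fell by 2.72 and Ifit2 by 2.16 on the log2 scale, Ifit2 from counts of 43, 40 and 23 to 7, 8 and 9. The list had already fallen by a median of 2.31 on the log2 scale from day 0 to day 1.

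The day 1 to day 2 step was then set beside the step from day 0 to day 1 in the same vehicle cells. The 2 steps share the day 1 libraries, so a library that is off at day 1 moves them in opposite directions, and the values are given side by side without a test of likeness. From day 0 to day 1, 6471 genes (54.1%) were DEGs, with 3129 higher (26.2%) and 3342 lower (27.9%). The contrast of the steps passed for 5651 genes (47.3%), with 3014 higher (25.2%) and 2637 lower (22.1%) in the later step. Adipocyte markers rose in both steps, by medians of 2.35 and then 1.44. Oxidative phosphorylation genes did the same, with 0.49 and then 0.75, and 55 and then 71 of 78 genes higher. Matrix genes fell in both steps, with medians of -0.59 and -0.72 on the log2 scale.

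Cholesterol synthesis enzymes turned around. They had a median of -1.0 in the first step, with 16 of 20 lower, and 1.62 in the second, and the contrast of the steps passed as higher for 19 of 20. Cyp51 changed by -0.04 and then 3.40. The stress response and amino acid list turned likewise, with 29 of 34 lower from day 0 to day 1 (median -1.03) and 29 higher afterwards, so that its per-library medians returned from -1.05, -0.96 and -1.02 to -0.11, -0.13 and -0.15 relative to day 0. Of 87 mitosis genes, 42 had risen from day 0 to day 1 (median 0.28). Replication genes had a median of 0.01 in the first step. From day 2 to day 7, 84 of 87 mitosis genes and 53 of 63 replication genes fell, with medians of -3.91 and -1.42, against 26.7% of all genes. Glucocorticoid genes had a first-step median of 1.95, with 15 of 20 higher.

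**Figure D4:**
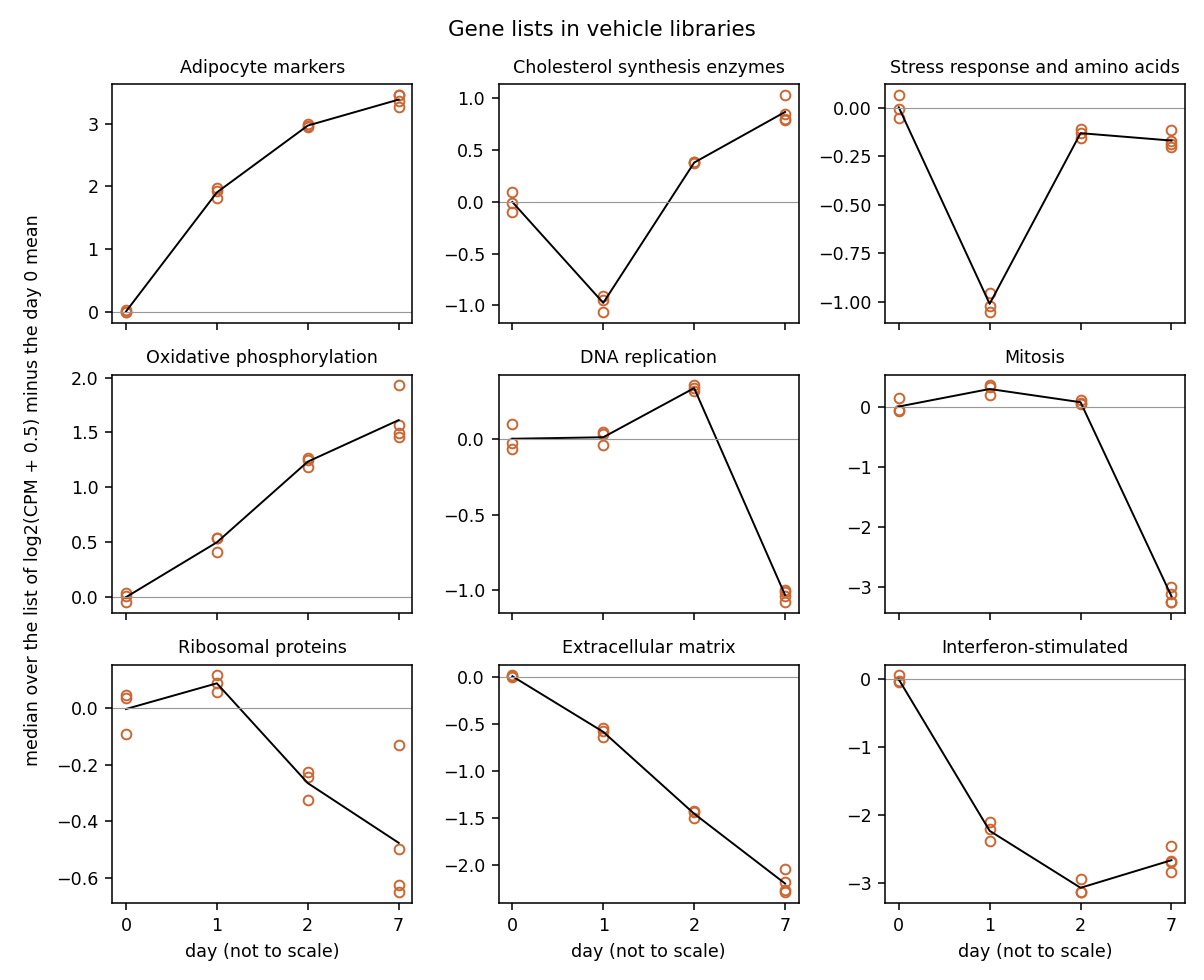
Median over each gene list of log2(CPM + 0.5) minus the mean of the day 0 vehicle libraries, with 1 circle for each vehicle library and a line through the means of the day. Cholesterol enzymes and the stress and amino acid genes dip at day 1 and are up again at day 2, replication is highest at day 2, and at day 7 replicate 1 lies apart from the other replicates in the ribosomal and oxidative phosphorylation panels.

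In cells that had received C70 from day -2 to day 0, the same step had 4416 DEGs (36.9%), of which 2253 were higher (18.8%) and 2163 lower (18.1%). The step differed between C70 and vehicle for 1656 genes (13.8%), by the interaction of day and treatment in edgeR's quasi-likelihood test, with 880 more positive (7.36%) and 776 more negative (6.49%) in C70. Mitosis genes were among the latter: 37 of 87 had a more negative step in C70 cells and 0 a more positive one, and their medians were -0.54 in C70 and -0.21 in vehicle. Replication genes differed in 2 of 63. Cholesterol synthesis enzymes differed in 15 of 20, all with a more negative step in C70, where 14 rose, 1 fell and 5 did not pass, and the medians were 1.07 in C70 and 1.62 in vehicle. Fatty acid synthesis gave 15 of 22 more negative and 1 more positive. Of 63 matrix genes, 34 had a more positive step in C70, 3 a more negative one and 26 did not pass, and 23 of 53 ribosome assembly genes were more positive too. Oxidative phosphorylation differed in 3 of 78 genes, at medians of 0.59 and 0.75. The sign of the median differed between C70 and vehicle in some lists and roles. That of glycolysis was -0.08 in C70 and 0.28 in vehicle, with 8 of 19 genes more negative in C70 and 0 more positive. Glucocorticoid genes had medians of -0.20 and 0.07, with 4 of 20 more negative and 2 more positive, and genes of cAMP response and feedback -0.15 and 0.05, with 4 of 17 more negative and 3 more positive. Enzymes of H3K4 methylation had medians of -0.05 and 0.01, with 0 of 16 that differed. Within mitosis, the kinetochore and checkpoint genes had medians of -0.37 and 0.04, and condensin, chromosomal passenger and topoisomerase genes -0.21 and 0.06.

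Mcam, Thrsp and Aqp1 were taken by the size of the difference of the steps, so their values describe it, and the other genes given here were named for other reasons. Mcam went from 3.24, 2.91 and 2.21 to 58.8, 56.4 and 63.9 CPM in vehicle and from 2.83, 3.74, 3.52 and 3.60 to 24.2, 26.7, 26.3 and 25.6 CPM in C70 (difference of the steps -1.51 ± 0.16 SE, adjusted P = 9.34e-08). Thrsp rose in vehicle as given above and from 1.34, 1.62, 1.82 and 2.09 to 17.1, 21.1, 17.1 and 14 CPM in C70 (difference -1.44 ± 0.27, adjusted P = 0.00023). Aqp1, a water channel, stood at 52.2, 39.5 and 40.6 and then 18, 15.7 and 19.6 CPM in vehicle, against 186, 183, 183 and 187 and then 285, 239.6, 249 and 267 CPM in C70 (difference 1.81 ± 0.17, adjusted P = 5.24e-09). Ccnd1 fell by 1.17 in vehicle and had a C70 step of -0.24 on the log2 scale (difference 0.93, adjusted P = 2.95e-06). Ccnb2 had steps of -0.45 and -1.35, and Ccna2 of 0.04 and -0.46, in vehicle and C70. Gpd1, first of the 12 largest rises in vehicle, rose by 5.97 in C70, from a lower start of 2.94 ± 0.518 CPM (SD, n = 4), and its difference of steps was 0.23 (adjusted P = 0.402).

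**Figure D5:**
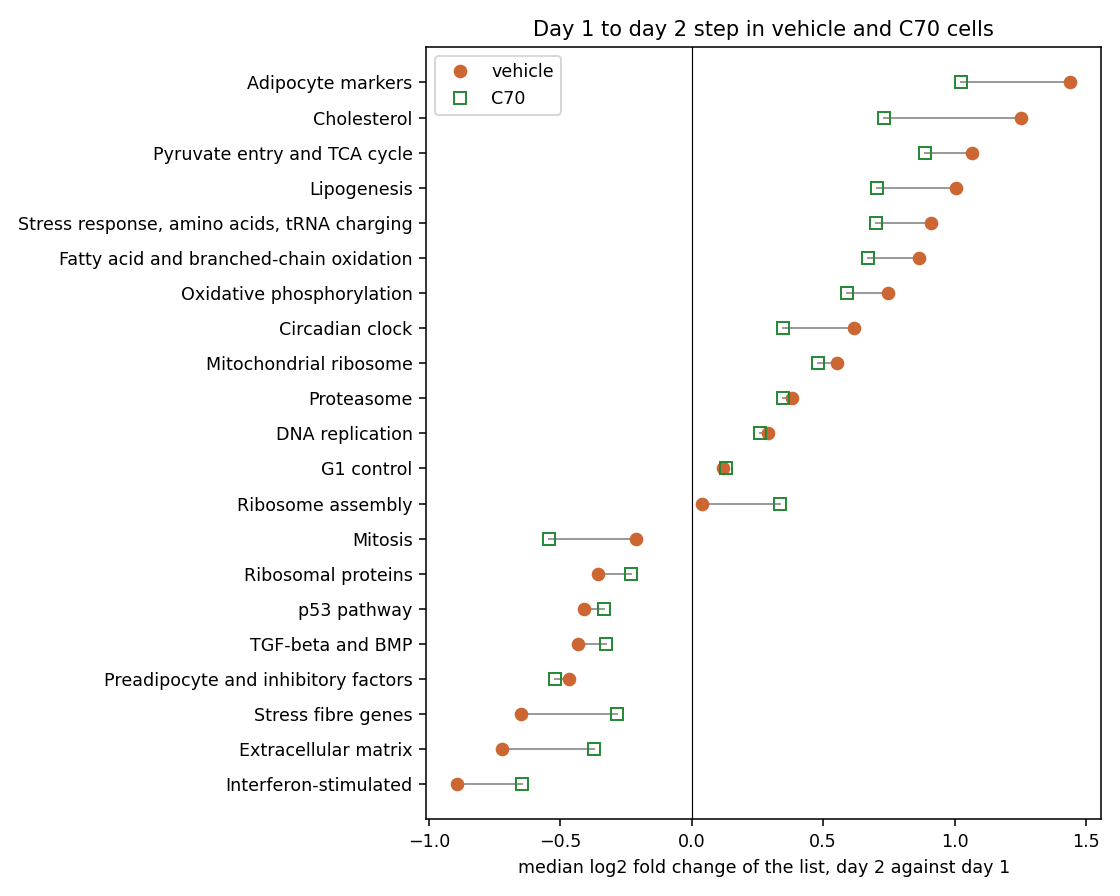
Median log2 fold change from day 1 to day 2 of 21 gene lists in vehicle (filled circles) and C70 cells (open squares). The medians have the same sign in both for the 21 lists drawn, though not for the glycolysis, glucocorticoid, cAMP and H3K4 genes, which are not drawn, and those of mitosis are -0.21 in vehicle and -0.54 in C70.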

How the data were processed

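RNA of 3T3-L1 cells was measured by strand-specific RNA-seq in 29 libraries of 8 groups. The labels name an mRNA library kit, whereas the study calls the assay total RNA-sequencing. STAR 2.7.2a served the authors for alignment to the Ensembl annotation of GRCm38, and they deposited whole-number counts per gene, without scaling between libraries, for 11959 genes that they had filtered. The submitters' processing notes name edgeR 3.26.8. The program that counted reads and its use of strand are not given in the sources used here, and 93 of the 220 genes taken by the naming rule are overlapped by a gene on the opposite strand, whose reads could not be told apart if strand was not used. Symbols from GENCODE were found for 11953 genes, and 6 had none.

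Scaling factors came from the trimmed mean of M values, and the counts were fitted here in edgeR 4.0.16 (R 4.3.3) by the quasi-likelihood test, with all 29 libraries in one model of group means and no covariate. Benjamini-Hochberg adjustment of P values ran over all genes of a comparison. DEGs passed both an adjusted P of 0.05 and the study's fold threshold, a log2 fold change of 0.32 in either direction. In simulated data for day 2 against day 1 with 11959 genes, of which 200 were changed, 98% of 2-fold and 91% of 1.5-fold changes were recovered with 10 false calls. The real comparison had 5292 DEGs, and the simulated counts took their spread from the fit itself. These rates therefore describe the simulated setting and may not hold for the data. Values are CPM in order of replicate 1, 2 and 3, and depth was 19073684 to 23768093 counts per library. The libraries were taken by their labels. The choice of this comparison, its gene lists and their members was made with earlier results of these data known, so lists are described by counts and medians without a test. Genes named were the 12 largest rises and 12 largest falls (DEGs above the median of mean CPM with groups that do not overlap), the 3 largest changes of each list role with the largest against the list, the genes the study names, and the 8 most positive and 8 most negative differences between C70 and vehicle. Some genes taken by these rules are not reported here, though lists and counts include them. Promoter windows came from RefSeq (GRCm38.p6), 1 per gene, the start farthest upstream, for 9007 of 11959 genes. In them 13 motifs were searched, of which only some are reported. Alternatives were DESeq2 1.42.0, median-of-ratios scaling in edgeR, limma 3.58.1 trend with prior counts of 2 and 0.5, quantile normalization, removal of the 10% of genes of lowest mean, the libraries compared alone with and without a replicate block, other fold thresholds, and each library left out in turn. Tables and plots used Python 3.11.15, pandas 2.3.3 and matplotlib 3.10.9.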

Additional observations from a re-analysis of the deposited data

Results flagged for a closer look

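The step from day 1 to day 2 differed between C70 and vehicle cells for 1656 genes by a test of the difference itself, and 24 of the genes taken by the naming rule are given here with that difference on the log2 scale (C70 step minus vehicle step). More positive in C70 were Aqp1 (1.81), Angptl7, a secreted angiopoietin-like protein (1.77), Lgals12 (1.34), the matrix protein gene Sparcl1 (1.33), Thy1 (1.252), Capn6 (1.19), the imprinted gene Peg10 (1.14), Fam107a (1.12), Ccnd1 (0.93), Dlk1 (0.58) and Ppif (0.35). A more positive step is not the same as a higher level. Lgals12 began near the floor in C70, at a mean of 0.78 CPM against 2.91 in vehicle. At day 2 its means were 52.7 in C70 and 80.2 CPM in vehicle. Angptl7 and Peg10 were also lower in C70 at day 1, whereas Aqp1 was higher in C70 on both days. More negative in C70 were Mcam (-1.51), Pdzd2 (-1.47), Thrsp (-1.44), Pqlc3 (-1.39), the cholesterol synthesis genes Mvd (-1.27) and Dhcr7 (-1.23), Anxa8 (-1.25), the clock receptor gene Rora (-1.18), Ccnb2 (-0.91), Fasn (-0.78), Ccna2 (-0.50), Acaca (-0.44) and Cebpa (-0.34). The calls of Cebpa, Ccna2 and Ppif were lost under at least 1 alternative each. Cebpa lost its call without day 1 replicate 1 (-0.27) or day 2 replicate 3 (-0.28), and with the 14 libraries fitted alone (-0.32). Ppif lost it without day 1 replicate 2 (0.28), without any 1 of the day 2 vehicle libraries (0.34 to 0.35), and by limma-trend (0.34). Ccna2 lost it by limma-trend (-0.51, adjusted P = 0.387). With both replicate 1 libraries left out, each of the 3 lost its call, at -0.28 for Cebpa, 0.38 for Ppif and -0.43 for Ccna2.

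In groups of 4 C70 libraries, 2 of 48 groups of these genes held a library far from the other 3 of its group, by the gap to its neighbour over the range. At day 2, 1 C70 library was at 58.3 CPM for Lgals12, and 1 was at 71.2 CPM for Thy1. Chance gives about 1 such group in 20, and groups of 3, which include the vehicle libraries of days 1 and 2, were not examined in this way.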

How the results depend on the processing

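Of 220 genes taken by the naming rule, 210 kept direction and side of the thresholds from day 1 to day 2 in vehicle under every alternative run, and 10 did not (Ccna2, Ccnb2, Cdc25c, Cdca5, Cebpb, E2f8, Fam107a, Lmod1, Rpl9 and Timp4). Ccna2, which passed no threshold, turned to -0.032 with both replicate 1 libraries left out (an alternative chosen after seeing the data), to -0.0177 after quantile normalization and to a range of -0.0436 to 0.101 with each library left out in turn. Fold thresholds changed the counts as their construction requires: over 1.5-fold, 2964 genes passed, 1484 higher and 1480 lower, and over 2-fold, 1233 passed, 616 higher and 617 lower. With each library left out in turn, 5157 to 5268 genes passed, and with both replicate 1 libraries left out 5088, of which 4820 were shared with the 5292 (91.1% of the larger list and 94.7% of the smaller). DESeq2 gave 5288 genes. Of 35 list medians, 33 kept their sign, the exceptions being cAMP targets and the H3K4 list, both near 0. Members of the mitosis list counted as lower numbered 19 with a prior count of 0.5 in limma, those of the H3K4 list 5 and of sterol sensing and transport 2 after quantile normalization, and those of glycolysis 2 with both replicate 1 libraries left out. Medians moved beyond the spread between libraries after quantile normalization for p53 (-0.448), early factors (-0.323), adipocyte markers (1.65), fatty acid synthesis (0.957), sterol sensing (0.37), mitochondrial DNA (0.511), carriers (0.375), glycolysis (0.102) and matrix (-0.788). The immediate early median was -0.278 without the tenth of genes of lowest level, and the p53 median -0.332 with both replicate 1 libraries left out. With each library left out in turn, medians ranged over -0.45 to -0.321 for p53, 0.983 to 1.05 for fatty acid synthesis, 0.326 to 0.41 for mitochondrial DNA, 0.0288 to 0.102 for ribosome assembly and -0.733 to -0.671 for matrix. The causes were not tested. Replicate numbers did not pair the samples, as deviations of same-numbered libraries from their group means correlated at -0.02, -0.05 and 0.07. A replicate block on the 6 libraries gave 5321 genes and 5305 without it, and on the 14 libraries of the C70 comparison 1927 and 1894. On 9 vehicle libraries with the block, 6477 genes passed from day 0 to day 1 and 5849 for the contrast of steps. The median of all genes lay between -0.019 and 0.00986 under every setting. Depth limited few genes named: Slc7a11, Timp4, Lmod1 and Ifit2 rested on summed counts of 5, 24, 12 and 24 in their lower group.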

Other observations

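Circadian clock genes, which oscillate through negative feedback, gave 9 rises and 2 falls among 17 from day 1 to day 2 in vehicle (median 0.62). The nuclear receptor gene Rora rose by 2.09 and the period gene Per3 by 1.81, while Nfil3, a repressor, fell by 0.60 on the log2 scale. The hour of collection is not given in the sources used here. Of 19 genes of insulin and IGF1 signalling, 6 rose and 7 fell (median -0.08). The growth factor gene Igf1 fell from 35, 36.2 and 37.1 CPM to 17, 18.5 and 16.8 CPM (log2 fold change -1.05 ± 0.095 SE, adjusted P = 5.05e-11). The decoy receptor gene Igf2r fell by 1.13 on the log2 scale.

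Of 16 H3K4 demethylases and methyltransferases, the enzymes that remove or place the histone mark of active promoters, 1 rose, 3 fell and 12 did not pass (median 0.01). The number higher was 0 in 9 of 15 alternatives and 2 in 2, and the number lower was 5 after quantile normalization. Kdm5b was at 135, 139 and 137 CPM at day 1 and 109.7, 108 and 102 CPM at day 2 (log2 fold change -0.36 ± 0.057 SE, adjusted P = 2.32e-06). Kdm5a was at 176, 181 and 182 CPM at day 1 and 177, 178 and 173 CPM at day 2 and Kdm5c at 179.9, 183 and 173 CPM at day 1 and 198, 191 and 186 CPM at day 2, and neither passed (adjusted P = 0.804 and 0.218). Kdm1a, the demethylase LSD1, fell by 0.41 and the methyltransferase gene Kmt2a by 0.42 on the log2 scale.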
